A study of Mus musculus with 25 samples.

Results

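The nuclear genes for the subunits of oxidative phosphorylation were examined in Achilles tendons of mice aged 3 months. Members were chosen by gene symbol alone (the Nduf, Sdh, Uqcr, Cox4 to Cox8 and Atp5 names), and 13 of the 103 entries so found were left out because their symbols carry a pseudogene suffix. This left 90 genes of the 55487 in the deposited count table. Of these, 39 were assigned to complex I, 4 to complex II, 8 to complex III, 21 to complex IV and 18 to complex V. The 90 still include 4 entries annotated as processed pseudogenes, whose symbols lack that suffix: Ndufa11b, Ndufb4c, Ndufs6b and Cox6c2. The other 86 are annotated as protein coding. Tendons came from wild type (WT) mice or from AMPKcKO mice (cKO), a conditional knock-out. AMPK is a kinase that senses cellular energy, and the study's title names its catalytic subunit AMPKα1 as the one lost. The Cre driver and the strain are not given in the sources used here. Mice of both genotypes had cage activity or ran on wheels. There were 7 libraries of WT mice at cage activity (4 female, 3 male). Each of the other groups, that is cKO at cage activity and runners of either genotype, had 6 (3 female, 3 male).

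Oxidative phosphorylation takes electrons from NADH (complex I) and succinate (complex II) through complexes III and IV to oxygen. The proton gradient built on the way drives ATP synthase, complex V. Most subunits are encoded in the nucleus and some, including the core of complex IV, in mitochondrial DNA. Several small subunits of complex IV exist as a ubiquitous isoform and one typical of heart and skeletal muscle, and tendon cells themselves are regarded as poor in mitochondria. AMPK is known to promote the making of mitochondria in muscle. The comparisons ask what loss of AMPK does to these transcripts at cage activity and under running.

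Library totals ran from 13193228 to 45724243 expected counts, and the 90 members took 0.756% to 1.33% of them. Counts for Prkaa1, which encodes AMPKα1, were 13.4, 23.1 and 31.2 CPM (counts scaled by library size) at the lowest, median and highest in WT cage and 13.9, 17.8 and 21.2 in cKO cage. In runners they were 15.6, 23.4 and 31.1 in WT and 16.2, 18.6 and 22.6 in cKO. The groups overlapped, and neither difference was called by edgeR's quasi-likelihood test (log2 fold change -0.41 ± 0.16 SE at cage and -0.32 ± 0.17 SE in runners, adjusted p = 1.00 and 0.464). Cre was counted in 11 of 12 cKO libraries (7 to 42 counts) and in 0 of 13 WT libraries. The cKO library without Cre (0 counts, against a floor of 3 counts) was female replicate 3 of the cage group, and the one labelled WT running male replicate 2 carried the reporter eGFP at 119.3 CPM. On the second principal component, WT running female replicate 2 (111.8) and male replicate 3 (83.1) lay apart. On the first, cKO running male replicate 2 (-88.9) and WT cage female replicate 1 (-72.0) had the lowest values, followed by WT running male replicate 3 (-66.9). Among the tendon markers, the collagen genes Col1a1 (1690 to 13300 CPM) and Col1a2 (1580 to 11500 CPM) were highest. Others were lower, such as Scx (11.6 to 263 CPM), Tnmd (11.5 to 85.7), Mkx (8.71 to 35.6) and Kera (3.11 to 58.6).

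Whole tendon can carry muscle from the muscle-tendon junction. The muscle share, meaning the part of all counts that fell in 33 contractile genes, was 14.0 ± 5.03% (SD, n = 7) in WT mice at cage activity and 14.9 ± 4.11% in WT runners. In cKO mice it was 13.3 ± 4.73% at cage activity and 9.07 ± 3.27% in runners (n = 6 each). It was 5.81 percentage points lower in cKO than in WT runners by a two-sided exact permutation test (p = 0.0281, adjusted p = 0.113 over 4 comparisons) and 4.27 points lower in cKO runners than in cKO cage mice (exact p = 0.0952, adjusted p = 0.19). The share ran from 3.92% in cKO running male replicate 2 and 4.04% in WT cage female replicate 1 to 20.4%. In bulk tissue, fewer cells of a type and less RNA per cell cannot be told apart, and this holds for each comparison here. Markers of brown adipocytes, another cell type rich in mitochondria, summed to 0.00114% to 0.00512% of counts.

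Of the 90 members, 85 had enough counts to be tested. The 5 that did not were Cox8c (0 counts over all libraries), Cox7b2 (14), Cox6b2 (170), Ndufa11b (14) and a second entry of the symbol Atp5o (37). Cox6b2, Cox7b2 and Cox8c are known as testis isoforms. The other members were abundant. Their median level was 170 FPKM (fragments scaled by gene length and sequencing depth), against 3.88 FPKM over the 19155 genes tested. The order of genes depends on this scaling. Cox6c2 and Cox4i2 had 1.85 and 1.86 CPM, but 52.3 and 3.87 FPKM. Ndufc1 had 67.1 CPM and Atp5a1 836 CPM, but 546 and 366 FPKM. Levels between genes and medians by complex are to be read with this limit. By complex, median levels were 138 FPKM for I, 114 for II, 254 for III, 190 for IV and 348 for V.

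**Figure D1:**
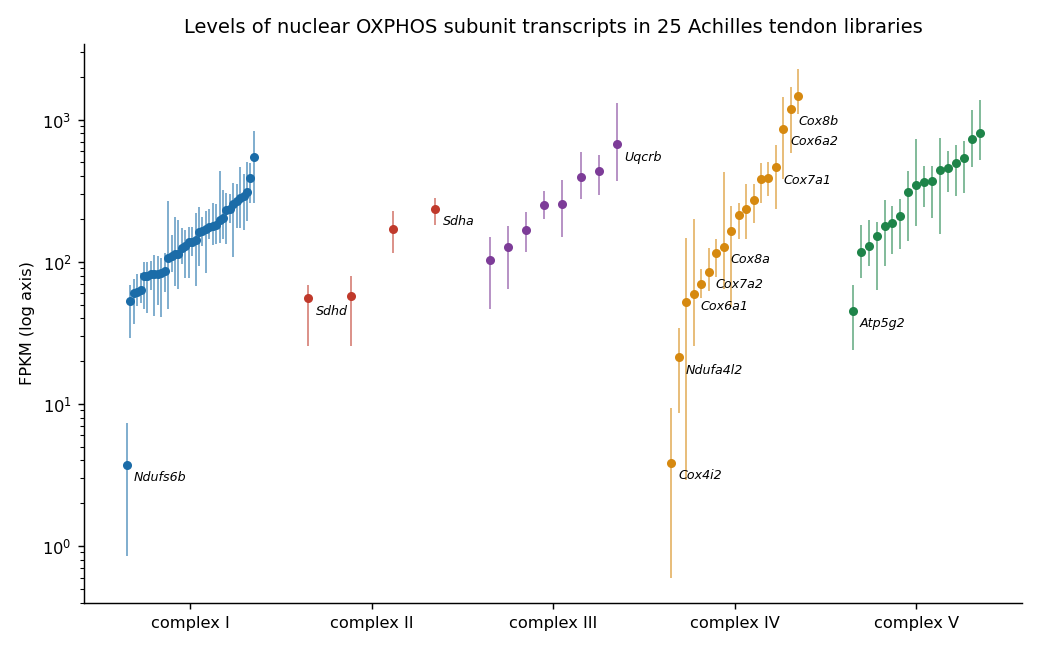
Each point is the mean level of a tested member over 25 libraries, in FPKM on a log axis, ordered within its complex, and the line spans the lowest to the highest library. Complex IV spans the widest range, from Cox4i2 at 3.87 to Cox6c at 1473 FPKM.

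Within complex I, Ndufc1, an accessory subunit, was highest (546 FPKM) and Ndufs6b, annotated as a processed pseudogene, was lowest (3.74 FPKM). In complex II the flavoprotein Sdha stood at 236 FPKM and the iron-sulfur subunit Sdhb at 170.1 FPKM (means over 25 libraries). The membrane anchors Sdhc and Sdhd were lower, at 57.6 and 55.2 FPKM. In complex III the accessory subunit Uqcrb was highest (671 FPKM) and the core protein Uqcrc2 lowest (103 FPKM). In complex V, Atp5mpl, a small membrane subunit, reached 812 FPKM, and Atp5g2, a gene for the c ring, had 45.0 FPKM. The other genes for the same c ring protein, Atp5g1 and Atp5g3, had 178 and 186.5 FPKM. These are levels per length. They say nothing of protein amounts.

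The muscle isoforms of complex IV outweighed their ubiquitous partners. Cox8b stood at 1196 FPKM and Cox8a at 127 FPKM, so that Cox8b made up 89.9 ± 7.44% of the pair (SD, n = 25). Cox6a2 stood at 858 FPKM and Cox6a1 at 59.4 FPKM (93.0 ± 4.97% Cox6a2). Cox7a1 had 462 FPKM and Cox7a2 had 84.8 FPKM (83.8 ± 4.45% Cox7a1). In FPKM, the muscle isoform was the more abundant partner in each of the 25 libraries: the lowest shares were 62.7% for Cox8b and 74.1% for Cox6a2, both in cKO running male replicate 2, and 72.4% for Cox7a1. In CPM, which are not scaled by length, Cox8a exceeded Cox8b in that library (79.7 against 58.1) and in WT cage female replicate 1 (97.1 against 95.4). Pairs of another kind went the other way. Cox4i2, an isoform linked to low oxygen and found mainly in lung, made up 1.02 ± 0.646% of its pair with Cox4i1. Ndufa4l2, a hypoxia-responsive relative of the complex IV subunit Ndufa4, made up 15.6 ± 5.44% of that pair.

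Cox6a1 (ENSMUSG00000041697) lies at chr5:115345642-115348981 on the minus strand and Cox8a (ENSMUSG00000035885) at chr19:7215153-7217616 on the minus strand. Cox6a2 (ENSMUSG00000030785) lies at chr7:128205435-128206387, where it overlaps Itgad on the opposite strand, and Cox8b (ENSMUSG00000025488) at chr7:140898945-140900446, both on the minus strand. Positions are those of GENCODE on GRCm38. The strand setting of the counting is not stated. For 33 of the 90 members a gene on the opposite strand overlaps, so their reads may include those of that gene.

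The windows below show the start regions of these partners, except Cox6a2. They hold the 250 bases before the start in RefSeq (GRCm38.p6), printed on the gene's strand from 5′ to 3′, at chr5:115348959-115349208 for Cox6a1, chr19:7217617-7217866 for Cox8a, chr7:140900447-140900696 for Cox8b, chr7:30183921-30184170 for Cox7a1 and chr9:79759854-79760103 for Cox7a2. Capitals mark matches to any of 6 motifs searched on both strands.
Cox6a1: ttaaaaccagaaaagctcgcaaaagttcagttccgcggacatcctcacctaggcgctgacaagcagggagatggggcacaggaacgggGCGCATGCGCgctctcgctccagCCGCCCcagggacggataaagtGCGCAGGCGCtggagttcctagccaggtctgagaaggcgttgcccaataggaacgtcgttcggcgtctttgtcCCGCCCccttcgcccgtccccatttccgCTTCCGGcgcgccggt
Cox8a: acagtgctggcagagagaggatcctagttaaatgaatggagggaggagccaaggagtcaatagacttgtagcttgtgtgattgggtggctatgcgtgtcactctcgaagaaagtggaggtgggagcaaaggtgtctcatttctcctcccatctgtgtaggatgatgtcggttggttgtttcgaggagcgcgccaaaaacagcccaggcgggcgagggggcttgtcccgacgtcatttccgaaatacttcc
Cox8b: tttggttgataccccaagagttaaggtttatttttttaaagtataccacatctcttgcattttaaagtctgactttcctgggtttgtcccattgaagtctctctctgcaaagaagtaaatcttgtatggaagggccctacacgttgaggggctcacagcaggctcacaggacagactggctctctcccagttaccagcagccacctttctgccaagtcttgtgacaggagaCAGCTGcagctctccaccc
Cox7a1: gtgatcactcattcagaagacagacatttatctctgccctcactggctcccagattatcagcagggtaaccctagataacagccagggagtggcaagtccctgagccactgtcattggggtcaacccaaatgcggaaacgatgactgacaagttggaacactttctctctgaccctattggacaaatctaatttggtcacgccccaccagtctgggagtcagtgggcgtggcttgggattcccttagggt
Cox7a2: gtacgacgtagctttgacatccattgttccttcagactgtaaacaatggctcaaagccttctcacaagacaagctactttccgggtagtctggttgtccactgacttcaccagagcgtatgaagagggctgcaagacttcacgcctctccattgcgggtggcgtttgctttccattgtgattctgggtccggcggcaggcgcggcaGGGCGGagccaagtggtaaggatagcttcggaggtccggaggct

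Cox6a1 held 26 CG pairs, Cox7a2 held 14 and Cox8a 11, while Cox7a1 held 4 and Cox8b 1. In Cox6a1 the capitals mark matches to the NRF1-like motif at -162 and -117 from the start, GC boxes (GGGCGG or its complement) at -139 and -44, and an ETS-like match (CCGGAAG or its complement) at -16. In Cox8b they mark 1 E-box (CAGCTG) at -19, and in Cox7a2 1 GC box at -44. The windows of Cox8a and Cox7a1 held no match. A match is a description of letters and not a site of binding.

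RefSeq windows were found for 68 of the 90 members (73 windows), out of 32851 windows in all. NRF1, the nuclear respiratory factor, is a known activator of respiratory chain genes. Its motif was in 17.8% of member windows and 3.74% of all windows, and the ETS-like motif in 16.4% and 6.91%. The GC box was in 34.2% and 32.7%, the TATA box (TATAAA) in 11% and 12.4%, and the E-box in 8.22% and 13%. The MEF2 element, a motif of muscle genes, was in 0 of 73 member windows and in 2.92% of all. The median number of CG pairs was 14 in member windows and 6 in all windows. The motifs overlap CG-rich sequence, and the shares were not matched for it.

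Across libraries, the members rose with the muscle genes. For each gene a slope was fitted on the muscle index, the mean log2 CPM of the 33 contractile genes, within the 4 groups and with sex as a term. A slope of 1 means that a gene follows the index unit for unit on the log2 scale. Of the 85 members tested, 74 rose with the index and 2 fell (edgeR, adjusted p under 0.05 over all genes), beside 17.3% of all genes that rose and 14.3% that fell. At an unadjusted p under 0.05 the same numbers of members passed, beside 20.8% of all genes higher and 20.2% lower. Slopes were above 0 in 80 members and in 45.2% of all genes. The median slope of members was 0.35, and that of all genes was -0.03. The contractile genes themselves had median slopes of 0.92 (fast and shared) and 0.73 (slow). They make up the index and so follow it by construction. Index and members share the libraries and their scaling.

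**Figure D2:**
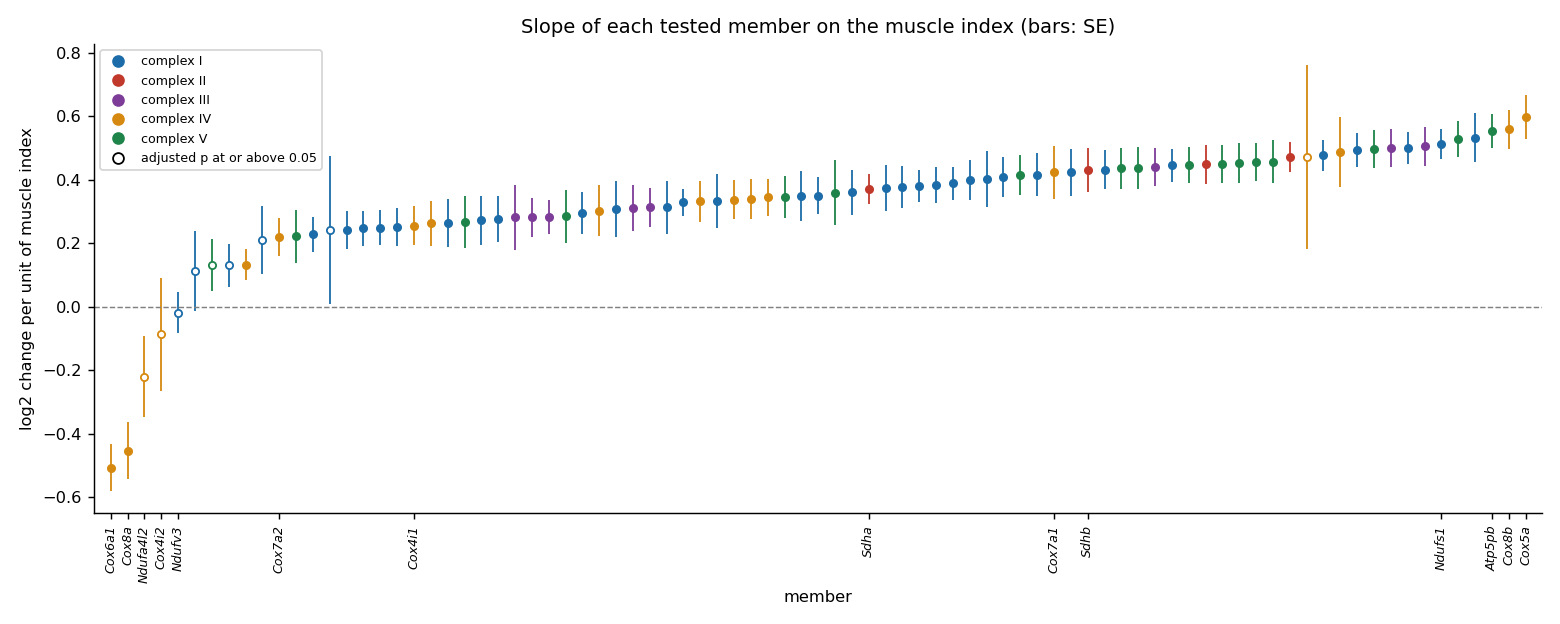
Each point is the slope of a tested member on the muscle index (log2 change per index unit, bars SE), coloured by complex, with names for some members. Filled points passed an adjusted p of 0.05. Cox6a1 and Cox8a lie apart at the left, below 0, and Cox5a is highest at 0.60.

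In complex I, 33 of 38 members rose. Ndufs1, the largest iron-sulfur subunit, ran from 69.6 CPM in cKO running to 296 CPM in cKO cage, with a median of 186 CPM over 25 libraries, and its slope was 0.51 ± 0.047 SE (edgeR adjusted p = 6.70e-09). Ndufa10 (0.50), Ndufa9 (0.49) and the core subunit Ndufs3 (0.45) followed. Ndufv3 (-0.02), Ndufb4, Ndufa6, Ndufc2 and Ndufs6b did not pass.

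All 4 genes of complex II rose, with slopes of 0.47 for Sdhc, 0.45 for Sdhd, 0.43 for Sdhb and 0.37 for Sdha. All 8 genes of complex III rose (0.28 to 0.51). In complex V, 16 of 17 rose, and Atp5l did not pass. Atp5pb, of the peripheral stalk, had a slope of 0.55 ± 0.052 SE (edgeR adjusted p = 1.07e-08), and Atp5b, the catalytic beta subunit, had 0.53. Slopes of these complexes lay below those of the contractile genes, which follow the index by construction because they make it up.

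Complex IV was divided. Of 18 tested members 13 rose, 2 fell and 3 (Cox4i2, Ndufa4l2 and Cox6c2) did not pass. Cox5a, which binds the matrix face of the core, ran from 16.3 to 116 CPM and had a slope of 0.60 ± 0.069 SE (edgeR adjusted p = 2.22e-07). The muscle isoforms rose: Cox8b by 0.56 ± 0.061, Cox6a2 by 0.49 ± 0.11 and Cox7a1 by 0.42 ± 0.085 log2 per index unit (SE).

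Of the ubiquitous partners, Cox6a1 had a slope of -0.51 ± 0.074 SE and Cox8a of -0.45 ± 0.090 SE (edgeR adjusted p = 6.41e-06 and 2.92e-04). In WT cage, Cox6a1 was 11.4, 15.7 and 48.9 CPM at its lowest, median and highest, and Cox8a was 24.9, 26.4 and 97.1 CPM. In cKO running the values were 15.9, 20.8 and 32.4 CPM for Cox6a1 and 35.7, 38.7 and 79.7 CPM for Cox8a. The highest library of each gene in each of these groups was the one lowest in the muscle index, WT cage female replicate 1 and cKO running male replicate 2. Without both, the slope of Cox6a1 was -0.32 (edgeR adjusted p = 0.0146) and that of Cox8a was -0.08 (adjusted p = 0.651), so the fall of Cox8a rests on that pair of libraries. Without WT cage female replicate 1 alone the slopes were -0.33 and -0.27, both still past the threshold.

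Cox7a2, the third ubiquitous partner, did not share this pattern. It ranged from 23.4 to 47.9 CPM and rose by 0.22 ± 0.060 SE per index unit in CPM (edgeR adjusted p = 0.00647), but its slope was -0.04 on the log2(FPKM + 1) scale. On that scale the median slope of all genes was -0.18, and 32 members rose and 5 fell, against 985 and 9503 of all genes. Relative to all genes, the members' median was higher by 0.38 in CPM and by 0.29 in FPKM. The slopes of Cox8b and Cox5a stayed past the threshold in FPKM, and those of Cox6a2 and Cox7a1 did not (adjusted p = 0.127 and 0.12). Cox6a1 and Cox8a fell on both scales.

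**Figure D3:**
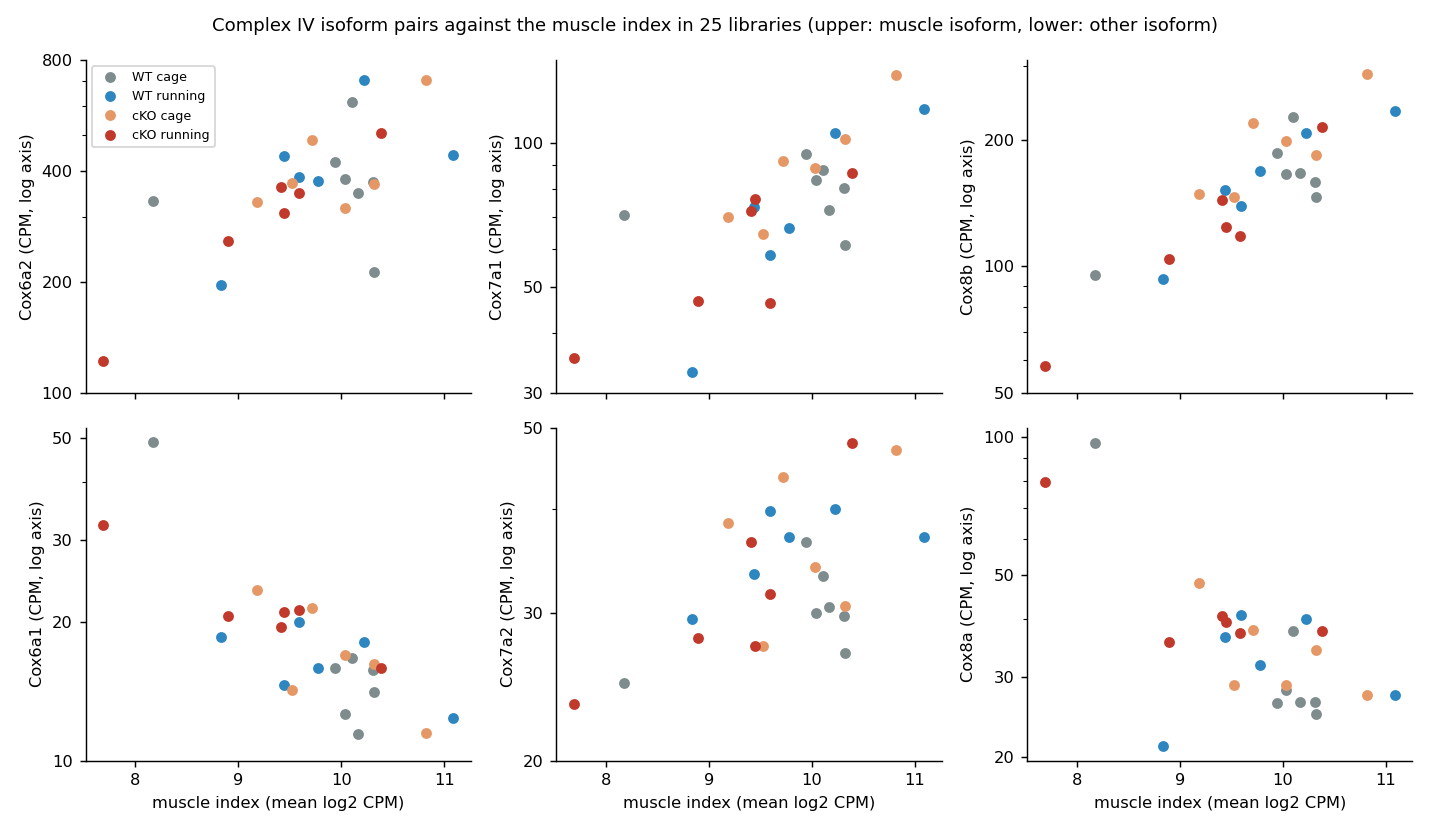
CPM of the 3 muscle isoforms (upper row) and their ubiquitous partners (lower row), on log axes, against the muscle index (mean log2 CPM) in 25 libraries, coloured by group. Cox6a2, Cox7a1 and Cox8b increase to the right. The 2 libraries at the left of the lower row hold the highest values of Cox6a1 (48.9 and 32.4) and Cox8a (97.1 and 79.7).

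At cage activity, members were somewhat higher in cKO than in WT tendon, within the spread of the libraries. The median log2 fold change was 0.13 over 85 members (all genes 0.002), with 75 above 0 and 10 below, where 50.5% of all genes were above and 49.5% below. None was called higher or lower by edgeR (0% of all genes), DESeq2 or limma-voom, and 0 members had an unadjusted edgeR p under 0.05, beside 0.475% of all genes higher and 0.658% lower. No member's groups failed to overlap, and 0.047% of all genes did. By complex the medians were 0.10 for I, 0.13 for II, III and IV, and 0.15 for V. Members share the libraries and most rose together with the muscle index. Counts of members by sign or by p are therefore not independent, here and in the comparisons below.

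**Figure D4:**
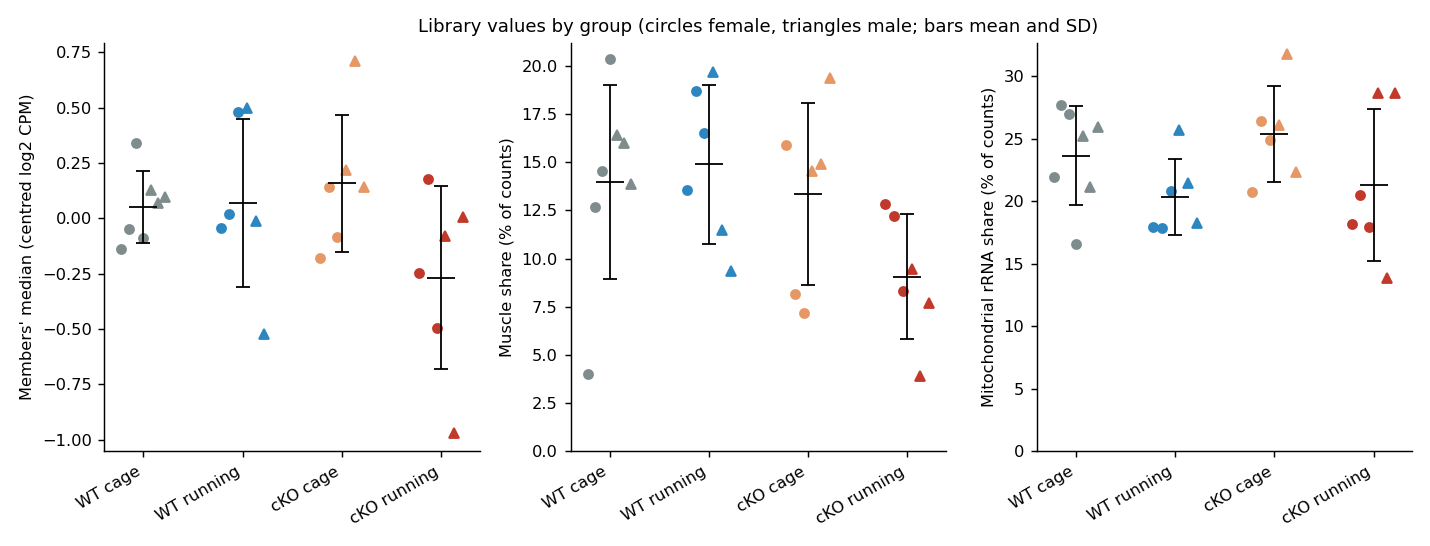
Library values by group, with mean and SD (circles female, triangles male): the members' median of centred log2 CPM, the muscle share and the mitochondrial rRNA share, both in percent of counts. The lowest median (-0.97) and the highest (0.71) belong to cKO running male replicate 2 and cKO cage male replicate 2.

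The smallest p at cage belonged to Cox7a2, at 24.8 to 36.5 CPM in WT (mean 30.2 ± 3.85 SD, n = 7) and 27.4 to 47.0 CPM in cKO (36.9 ± 7.58 SD, n = 6). The ranges overlapped over most of their length, and its log2 fold change was 0.29 ± 0.15 SE (edgeR adjusted p = 1.00). Ndufb4c (0.34), a processed copy of Ndufb4, and Ndufs8 (0.25), a core iron-sulfur subunit, came next. Complex II genes stood between 0.09 and 0.22. Cox6a1 (-0.15) and Cox8a (-0.13) were below 0, and above 0 without WT cage female replicate 1 (0.26 and 0.27). Cox4i2 (-0.16) and Ndufb4 (-0.13) were also below 0. Without cKO cage male replicate 2, in which members were high, the median over members was 0.006, and in females alone it was -0.03.

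Among runners, members were lower in cKO. The median log2 fold change was -0.33 (all genes 0.01), with 80 of 85 below 0 and 5 above, where 48.7% of all genes were below and 51.3% above. Again 0 were called by edgeR (0% of all genes higher or lower), DESeq2 or limma-voom. Without a filter on low counts, edgeR called 1 member lower (Cox5a), beside 0.237% of all genes. At an unadjusted edgeR p under 0.05, 17 members were lower and 0 higher, beside 4.83% of all genes lower and 6.52% higher. The groups of each member overlapped (0.376% of all genes did not). Medians were -0.34 for complex I, -0.38 for II, -0.30 for III, -0.23 for IV and -0.41 for V.

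Cox5a had the smallest p. It was 52.4, 79.5 and 116 CPM in WT runners and 16.3, 58.2 and 70.0 CPM in cKO runners. The highest cKO value lay below the WT median, and the log2 fold change was -0.74 ± 0.26 SE (edgeR adjusted p = 0.387). Ndufa8, an accessory subunit of complex I, was 41.5, 51.9 and 71.3 CPM in WT and 33.0, 41.1 and 51.7 CPM in cKO (-0.39 ± 0.16 SE, adjusted p = 0.401), and Ndufb3 differed by -0.45. Sdha was 244, 340.0 and 484 CPM in WT and 186, 291 and 336 CPM in cKO (-0.37 ± 0.18 SE, edgeR adjusted p = 0.44). The other 3 genes of complex II lay between -0.27 and -0.42.

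In runners the values of Cox8b and Cox8a, and of Cox6a2 and Cox6a1, had opposite signs, those of Cox7a1 and Cox7a2 had the same sign, and no difference within a pair was tested. Cox8b (-0.39), Cox6a2 (-0.42) and Cox7a1 (-0.33) were lower in cKO, whereas Cox8a (0.49 ± 0.28 SE) and Cox6a1 (0.40 ± 0.27 SE) were higher (edgeR adjusted p = 0.493 and 0.543). Cox7a2 (-0.16) was lower, and Cox4i2 (0.30), with medians of 1.8 CPM in WT and 1.83 CPM in cKO runners, was higher. Cox8b made up 89.0% to 95.3% of its pair in WT runners and 62.7% to 92.8% in cKO runners. The lowest of these was cKO running male replicate 2, and the other cKO runners lay at 86.9% to 92.8%. Without cKO running male replicate 2, Cox8a and Cox6a1 stood at 0.21 and 0.23.

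Muscle genes moved with this difference. All 33 contractile genes were below 0 in cKO runners (medians -0.72 for the fast and shared list and -0.52 for the slow list, 0 called). With the muscle index in the fit the members' median was -0.12, with 77 of 85 below 0, and without cKO running male replicate 2 it was -0.21. Schwann cell genes were above 0 (9 of 9, median 1.58, 0 called), and their summed level was 0.00606% to 0.0404% of counts in WT runners and 0.0109% to 0.188% in cKO runners. Erythroid genes were also above 0 (5 of 5, median 1.49, 0 called), at 0.00318% to 0.00743% of counts in WT runners and 0.00564% to 0.0363% in cKO runners. The part of these lists in the members' difference was not tested. All 6 cKO runners carried eGFP at over 50 CPM, and so did 1 of 6 WT runners. With eGFP carriage in the fit the median was -0.13. On the log2(FPKM + 1) scale the members' median was -0.15, while that of all genes was 0.12.

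**Figure D5:**
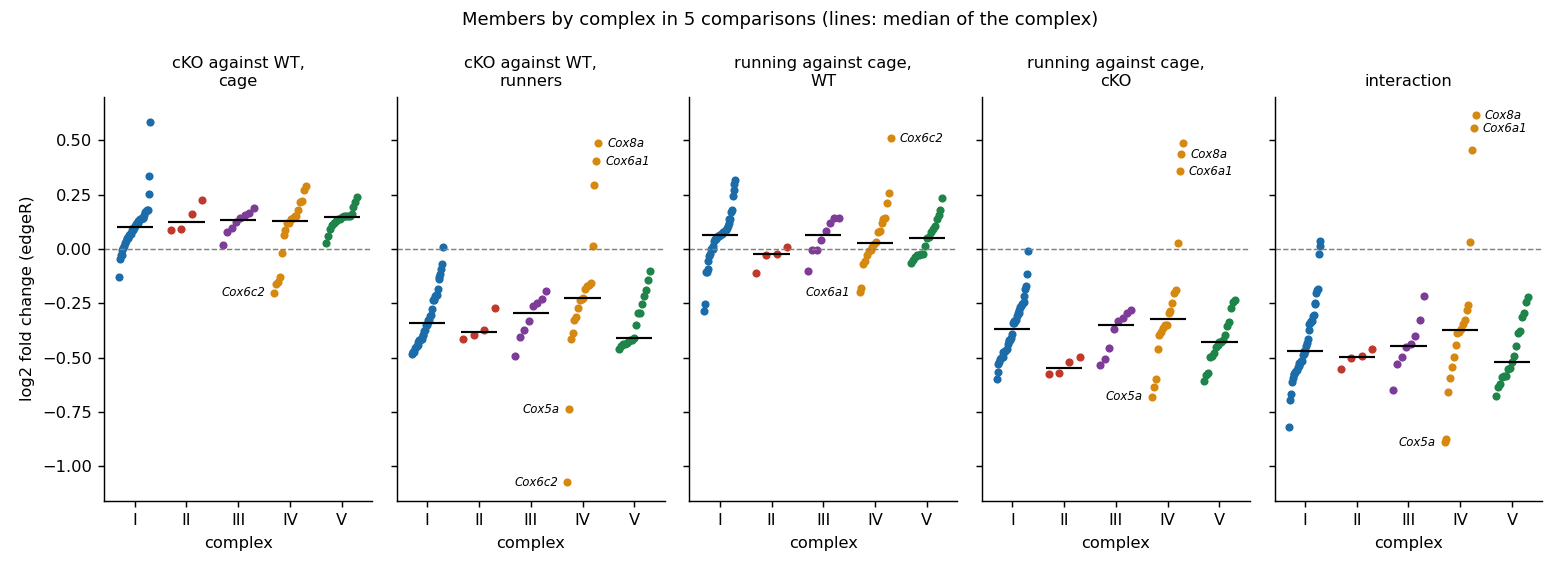
Log2 fold changes of the 85 tested members by complex in 5 comparisons (edgeR), ordered within each complex, with the median of each complex as a line. In cKO runners the points lie mostly below 0, both against WT runners and against cKO cage mice, and Cox8a and Cox6a1 lie above.

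In WT tendon, members of runners lay near their cage levels. The median log2 fold change was 0.06 (all genes 0.003), with 54 above 0 and 31 below, where 50.4% of all genes were above and 49.6% below. edgeR, DESeq2 and limma-voom called 0 members, beside 0.104% of all genes higher and 0.0261% lower with edgeR, and 0 members had an unadjusted edgeR p under 0.05 (4.64% of all genes higher, 5.11% lower). Ndufa7 was 16.5, 17.1 and 23.6 CPM in cage mice and 15.4, 21.1 and 26.8 CPM in runners (0.25 ± 0.14 SE, edgeR adjusted p = 0.589). Cox7a2 (0.26) and Ndufb3 (0.30) followed, and Ndufa3 (-0.25), Ndufb4 (-0.29) and Cox6a1 (-0.20) were the lowest by p. These ranges overlapped, as did those of the other members (0.543% of all genes did not overlap). Complex II lay between -0.11 and 0.01. The median was -0.06 without WT running female replicate 3 and 0.15 without WT running male replicate 3.

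In cKO tendon, members were lower in runners than in cage mice. The median log2 fold change was -0.39 (all genes 0.03), with 81 of 85 below 0, where 46.1% of all genes were below. edgeR and DESeq2 called 0 members, beside 0.0313% of all genes higher and 0.0104% lower with edgeR, and limma-voom called 2 lower, Sdha and Ndufs1, beside 1.28% of all genes lower with limma-voom. Without a filter on low counts, edgeR called 6 members lower, beside 0.765% of all genes. At an unadjusted edgeR p under 0.05, 33 members were lower and 0 higher, beside 7.07% of all genes lower and 6.48% higher. These members are not independent of each other. No member's groups were fully apart (0.887% of all genes were). Medians were -0.37 for complex I, -0.55 for II, -0.35 for III, -0.32 for IV and -0.43 for V.

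Complex II lay lowest of the 5 complexes. Sdha, which binds succinate, was 320.0, 405 and 588 CPM in cage mice and 186, 291 and 336 CPM in runners (-0.57 ± 0.18 SE, edgeR adjusted p = 0.207). The ranges shared only the stretch between the lowest cage and the highest running library. Sdhd was 55.9, 61.2 and 91.3 CPM in cage mice and 18.2, 46.4 and 61.2 CPM in runners (-0.58 ± 0.21 SE, edgeR adjusted p = 0.245). Sdhb and Sdhc differed by -0.52 and -0.50. In cKO cage male replicate 2, Sdhb, Sdhc and Sdhd were well above the other cage libraries.

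Among the other complexes, Ndufs8 was 45.8, 54.8 and 82.8 CPM in cage mice and 17.1, 40.2 and 47.2 CPM in runners (-0.60 ± 0.20 SE, edgeR adjusted p = 0.221). Ndufa8 (-0.46), the acyl carrier protein Ndufab1 (-0.50), Cox5a (-0.68), Cox8b (-0.64) and Cox7a1 (-0.60) were also among those with an unadjusted p under 0.05. Cox8a was 27.4, 31.5 and 47.9 CPM in cage mice and 35.7, 38.7 and 79.7 CPM in runners (0.44 ± 0.28 SE, edgeR adjusted p = 0.498). Cox7a2 was below 0 in counts (-0.19) and above 0 on the log2(FPKM + 1) scale (0.09). Cox6a1 (0.36) and Cox4i2 (0.49) were also above 0, and without cKO running male replicate 2 Cox8a and Cox6a1 stood at 0.16 and 0.19.

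This difference varied with the libraries taken. With the muscle index in the fit, the members' median was -0.17 and 82 of 85 were below 0. With the share of mitochondrial rRNA in the fit, which was 25.4 ± 3.84% in cKO cage and 21.3 ± 6.08% in cKO running (SD, n = 6), it was also -0.17. In females alone it was -0.09 and in males alone -0.64, and the difference between the sexes was not tested. Without cKO running male replicate 2 it was -0.24. Fast contractile genes had a median of -0.55 and Schwann cell genes of 1.83 in the same comparison (0 called in either list). On the log2(FPKM + 1) scale the members' median was -0.17 and that of all genes was 0.18. All cKO runners carried eGFP at over 50 CPM, but in cKO cage only female replicate 1 (163 CPM) and male replicate 1 (117 CPM) did. Carriage thus differed between these groups, and a fit with it is not given here for this comparison.

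Averaged over both genotypes, running went with a median of -0.17 in members (all genes 0.01), with 77 of 85 below 0 and 8 above, where 47.8% of all genes were below and 52.2% above. Called members were 0 by edgeR and DESeq2 and 1 by limma-voom (Sdha, lower, beside 2.99% of all genes lower with that tool), while edgeR called 0.611% of all genes higher and 0.814% lower. At an unadjusted edgeR p under 0.05 there were 4 lower members and 0 higher ones (all genes: 7.59% and 7.29%). They were Sdha (-0.34 ± 0.12 SE, adjusted p = 0.188), Ndufa3 (-0.34), Ndufab1 (-0.28) and Sdhd (-0.30). Cox4i2 (0.26), Cox8a (0.13) and Cox6a1 (0.08) were above 0. The members' median was 0.02 with the mitochondrial rRNA share in the fit and in females alone, -0.32 in males alone, and -0.09 without cKO cage male replicate 2.

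The interaction asks whether running differs between genotypes. The comparisons within genotype share its libraries. Its median over members was -0.46 (all genes 0.02), with 79 of 85 below 0, where 48.3% of all genes were below. edgeR, DESeq2 and limma-voom called 0 members, and edgeR called 0% of all genes. At an unadjusted edgeR p under 0.05, 13 members were below 0 and 0 above, beside 2.68% and 4.51% of all genes. Ndufa8 (-0.56 ± 0.22 SE), Cox5a (-0.89 ± 0.36 SE) and Ndufs8 (-0.67 ± 0.27 SE) had the smallest p (edgeR adjusted p = 0.672 for each). Cox8a (0.62), Cox6a1 (0.56) and Cox4i2 (0.46) were above 0. Without the libraries lowest in the muscle index, Cox8a and Cox6a1 stood at -0.04 and -0.002 and the members' median at -0.28. With the muscle index in the fit the median was -0.21.

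Between the sexes, differences of the members were small beside their errors. The median of male against female was 0.05 (all genes -0.003), with 62 above 0 and 23 below, where 49.4% of all genes were above and 50.6% below. edgeR, DESeq2 and limma-voom called 0 members, beside 0.318% of all genes higher and 0.298% lower in males with edgeR, and 1 member had an unadjusted edgeR p under 0.05 (4.52% of all genes higher, 5.57% lower). This was Cox4i2, at 0.305, 1.62 and 1.91 CPM in 13 females and 1.04, 1.97 and 4.46 CPM in 12 males (0.59 ± 0.24 SE, edgeR adjusted p = 0.387). Its ranges overlapped. Ndufa8 (0.16) was also above 0, and Cox7a2l, a factor of supercomplex assembly (-0.11), Cox8a (-0.24) and Ndufa4l2 (-0.20) below. The sign of the median turned in FPKM (-0.05) and with the muscle index in the fit (-0.02).

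Other genes of the pathway were taken as lists. The 13 mRNAs of mitochondrial DNA, which encode membrane subunits of complexes I, III, IV and V, took 2.88% to 4.46% of counts in WT cage and 1.03% to 4.75% in cKO running. Of these, 12 of 13 rose with the muscle index and 0 fell (median slope 0.58). In cKO against WT runners 13 of 13 were below 0 (median -0.41), and in cKO running against cage 13 of 13 (median -0.61), with 0 called by edgeR in either. mt-Nd6 differed by -0.97 ± 0.34 SE in the latter (adjusted p = 0.235).

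The 14 genes of the citric acid cycle rose with the index throughout (14 of 14 called, median 0.49). Fh1, fumarase, had a slope of 0.55. All 14 were below 0 in cKO against WT runners (median -0.43) and in cKO running against cage (median -0.59), with 0 called. Idh2, the NADP-dependent isocitrate dehydrogenase, differed by -0.94 ± 0.27 SE in the latter (edgeR adjusted p = 0.171). Cycs, the somatic cytochrome c, had a slope of 0.38. Of the carriers of ATP, ADP and phosphate and the outer membrane channels, 5 of 6 rose with the index, led by Vdac1 (0.67) and Slc25a4 (0.585), the muscle and heart ADP/ATP carrier.

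Assembly factors build the complexes without being part of them. Of complex I factors 6 of 15 rose with the muscle index, of complex II factors 2 of 4, of complex III factors 4 of 6, of complex IV factors 10 of 21 and of ATP synthase factors 3 of 4, with 0 falling in any list. Median slopes ran from 0.15 for complex I to 0.38 for ATP synthase. Whether these counts differ from those of the subunits was not tested. Cox15 (-0.43 ± 0.12 SE), which makes the haem of complex IV, had the smallest p of the complex IV factors in cKO against WT runners (edgeR adjusted p = 0.366).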

How the data were processed

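Total RNA of pulverised Achilles tendon was sequenced, 1 library per sample. The authors deposited expected counts per gene (whole numbers, used as deposited) and FPKM (fragments scaled by gene length and depth). The submitters' processing notes name RSEM 1.3.3, STAR 2.7.8a, FastQC 0.11.8 and cutadapt 2.3, with the build GRCm38 (mm10). Their roles, the annotation release and the strand setting are not given in the sources used here.

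Groups and sex came from the labels. Library names carry a project prefix, and it differs from the common one in male replicate 3 of the cKO cage group. The same holds for female replicate 4 of the WT cage group. No runner has this other prefix, so it is partly mixed with cage activity. With the prefix in the fit, 74 members rose with the muscle index and 2 fell, and likewise with only the common prefix. Its part in the running comparisons is not given here. Genes were filtered with filterByExpr (19155 kept), scaled by TMM and tested with edgeR 4.0.16 (R 4.3.3) by the quasi-likelihood test, with 4 group means and sex, and p-values were Benjamini-Hochberg adjusted over all genes (threshold 0.05). The muscle index was added to the same fit for slopes. Levels within a gene are TMM-scaled CPM, and levels between genes are FPKM. DESeq2 1.42.0, limma 3.58.1 and other scalings, filters, covariates and sets of libraries were alternatives. Where DESeq2 or limma-voom called 0 members, the share of all genes called with that tool is not given here. The edgeR test was checked on simulated data. Of 100 genes changed 2-fold, it found 39 in the interaction, 60 in cKO running against cage and 67 in cKO against WT runners. For the muscle index slope it found 95. Of 100 changed 4-fold, it found 82 in the interaction. Changes under 2-fold were not simulated. The labels do not say that libraries came from separate animals, so p-values measure the spread between these samples.

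Members named are those called (up to 10) or, with fewer than 3 called in a direction, the 3 of smallest p, with isoform pairs and Sdh genes. Members and lists were chosen with earlier results of these data known. Some named items are not reported here.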

Additional observations from a re-analysis of the deposited data

Results flagged for a closer look

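Of 80 checks of a sample against the rest of its group, 7 stood apart, and chance flags about 1 in 20 groups. In WT cage female replicate 1, Cox6a1 was 48.9 CPM (other libraries of the group 11.4 to 16.7) and Cox8a was 97.1 CPM (24.9 to 37.8). In cKO running male replicate 2, Cox6a1 was 32.4 CPM (15.9 to 21.2) and Cox8a was 79.7 CPM (35.7 to 40.7). These libraries had the lowest muscle shares of all 25, at 4.04% and 3.92%. The part of muscle content in these values was not tested.

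In cKO cage male replicate 2 the complex II genes stood high. Sdhb was 270.0 CPM (other libraries of the group 152 to 186), Sdhc was 175 CPM (93.0 to 121) and Sdhd was 91.3 CPM (55.9 to 64.0). The same library had the highest mitochondrial rRNA share of all 25, at 31.8%. The part of this share in those values was not tested.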

How the results depend on the processing

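Members called changed as follows. Without a filter on low counts, 1 member (Cox5a) was called lower in cKO against WT runners (0.237% of all genes in that fit) and 6 (Cox5a, Sdhd, Atp5g3, Cox8b, Ndufs8 and Cox7a1) in cKO running against cage (0.765% of all genes). limma-voom called 2 lower in cKO running against cage (1.28% of all genes) and 1 in running averaged over genotypes (2.99%). For the muscle slope, 76 members were called in the counts, against 37 on the log2(FPKM + 1) scale, 36 on log2(FPKM + 0.1) and 26 in females alone. Of all genes, 17.3% rose and 14.3% fell in the counts. The shares in females alone and on log2(FPKM + 0.1) are not given here, so these lower counts are not read as particular to members. The members' median slope of 0.35 was 0.112 and 0.12 on those FPKM scales, 0.278 with the mitochondrial rRNA share as a covariate, 0.227 in females, 0.496 in males and 0.428 less the 2 libraries lowest in the muscle index, an alternative chosen after seeing the data. Leaving out 1 library at a time gave 0.302 to 0.448, the highest without WT cage female replicate 1. The slope of Cox7a2 turned to -0.038 and -0.039 in FPKM. The cause of these changes was not tested.

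Replicate numbers did not pair the samples (median correlation of same-numbered samples -0.013, over 34 pairs). With a replicate block, the median slope was 0.38 with 71 members higher and 2 lower. The share of all genes called in that fit is not given here. With that block the members' medians were -0.32 in cKO against WT runners and -0.402 in cKO running against cage, with 0 members called in these comparisons. Leaving out the libraries with eGFP gave no value for comparisons with cKO runners, since all of them carry it. Low counts limit Ndufs6b (296 over all libraries), Cox6c2 (1076) and Cox4i2 (1202).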

Other observations

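Among entries left out for the pseudogene suffix, Ndufb1-ps had 25667 counts over all libraries, Cox5b-ps 16393 and Atp5pb-ps 5002. Ndufb4c, annotated as a processed pseudogene, made up 70.8 ± 9.6% of the FPKM of its pair with Ndufb4 (SD, n = 25), with a lowest value of 38.8% in WT cage female replicate 1. The larger share appears only after scaling by length, since in counts Ndufb4c had 26504 and Ndufb4 54566. These copies share sequence with their parent genes, so the split of reads between them is uncertain. Of the other cell types, 8 of 8 white adipocyte genes and 9 of 10 macrophage genes fell with the muscle index (edgeR, adjusted p under 0.05, median slopes -0.59 and -0.47). So did 5 of 5 erythroid genes (median -0.92) and 5 of 9 Schwann cell genes (median -0.94). Of 10 tendon cell genes 0 were called (median -0.12), and of 8 endothelial genes 2 rose and 1 fell (median -0.005). Of 4 brown adipocyte genes tested, 1 rose and 0 fell. Over all genes, 17.3% rose and 14.3% fell.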
